A study of Mus musculus with 12 samples.

Results

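The spindle assembly checkpoint and the ubiquitin ligase it holds in check were followed at the RNA level through 10 genes in mouse oocytes. The genes were chosen by name, for the roles of their products, with earlier results of these data known. All 10 were found among the 56691 genes of the count table. They were the checkpoint genes Mad1l1, Mad2l1, Bub1, Bub1b, Bub3 and Ttk, the activators Cdc20 and Fzr1 of the anaphase-promoting complex or cyclosome (APC/C), the APC/C ubiquitin-conjugating enzyme gene Ube2c, and Pttg1, which encodes securin. RNA was measured in WT oocytes and in oocytes without the RNA demethylase ALKBH5 (KO), each at 3 labelled stages: germinal vesicle (GV), germinal vesicle breakdown (GVBD) and metaphase II (MII). Each of the 6 groups had 2 libraries, 12 in all.

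The origin of the oocytes is given here from the methods of the study. All of them came from C57BL/6 juvenile females that had been primed with pregnant mare serum gonadotropin. The KO allele lacks the first exon of Alkbh5 with its start codon, was made by CRISPR-Cas9 and is carried by every cell of the animal, so the loss was not limited to the oocyte. Oocytes were freed of cumulus cells, pooled, cultured in M16 medium after removal of milrinone, which holds oocytes at the GV stage, and taken by time in culture. The study describes most KO oocytes as failing to reach GVBD or to release a polar body. KO libraries labelled GVBD and MII may therefore hold oocytes of earlier stages, and genotype and stage cannot be told apart in them.

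The checkpoint delays anaphase until every chromosome is attached to the spindle. TTK and BUB1 kinases load MAD1 and MAD2 onto unattached kinetochores, and MAD2, BUBR1 (the product of Bub1b) and BUB3 then bind CDC20 and keep it from activating the APC/C. Once released, APC/C with CDC20 marks securin and cyclin B1 for destruction, which frees separase to cut cohesin. FZR1, also called CDH1, activates the APC/C at other times, and in mouse oocytes it helps to hold the GV arrest by keeping cyclin B1 low. Transcription ceases as oocytes become fully grown, so RNA levels during maturation mainly reflect stored transcripts, their decay and the length of their poly(A) tails. The study describes KO GV oocytes as smaller, with a raised ratio of non-surrounded to surrounded nucleolus, and proposes impaired growth. KO and WT GV oocytes may therefore differ in how far they had grown. The comparisons ask how the stored RNAs of this machinery differ between stages and between genotypes.

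Total counts were between 28.6 and 40.2 (in units of 1e6) per library, of which 221927 to 838409 fell on the ERCC spike-in, a mix of synthetic RNAs added to each tube before reverse transcription. Levels are given on 2 scales. The ERCC-scaled count is the count divided by the library's ERCC sum relative to the mean of the 12 sums, and stands for the amount per tube. The share is the count relative to all counts on genes in the library, in counts per 1e6 (CPM). Fewer oocytes in a tube and less RNA per oocyte cannot be told apart on the first scale. The targeted gene followed the labels. Alkbh5 reached 3020 to 13700 scaled counts in the WT libraries and 50.9 to 260 in the KO libraries. All 10 oocyte markers were detected in every library. Of 14 cumulus and granulosa markers, 9 to 13 were detected in each library. Cyp19a1, the aromatase gene, was the most counted of them in all libraries, with 577 to 2225 counts, and Amh and Foxl2 had at most 5 counts in any library. Their summed scaled count was higher in KO than in WT without overlap at every stage, at 2550 and 2700 against 1820 and 2120 for GV, 2180 and 3660 against 1630 and 1990 for GVBD, and 1940 and 2210 against 939 and 1670 for MII. As shares the sums overlapped at GV and were higher in KO at the later stages, at most 74.9 against 53.7 CPM for GVBD and 87.9 against 56.6 CPM for MII. The 5 blood markers, in sum, ranged from 159 to 179000 scaled counts. They were at 67500 or more in 1 WT GV library and in both libraries of KO GV and WT GVBD, at 24600 in 1 KO MII library, and at 1350 or less elsewhere. The part of such material in the results was not tested. KO MII replicate 2 had the fewest genes detected, 19837 against 21938 to 24436 in the other 11.

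On GRCm38, with GENCODE M21 positions counted from 1, the checkpoint genes lie at chr5:140008689-140321552 on the minus strand (Mad1l1), chr6:66535390-66547220 on the plus strand (Mad2l1), chr2:127801122-127831865 on the minus strand (Bub1), chr2:118598211-118641591 on the plus strand (Bub1b), chr7:131560222-131571895 on the plus strand (Bub3) and chr9:83834689-83872389 on the plus strand (Ttk). Cdc20 lies at chr4:118432901-118437352 and Fzr1 at chr10:81366222-81378516, both on the minus strand. Ube2c lies at chr2:164769898-164778822 on the plus strand and Pttg1 at chr11:43420250-43426251 on the minus strand. Counting may not have used strand, and 592 exonic bases of Ube2c, 22.8% of its total, overlap Tnnc2 on the opposite strand. The overlaps of Cdc20 with Elovl1, Mad1l1 with Gm16121 and Fzr1 with Mfsd12 were under 3% of each member's exonic bases.

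Stored oocyte RNAs often carry a cytoplasmic polyadenylation element (CPE), a short U-rich motif bound by CPEB proteins a little before the polyadenylation signal. By the study's methods, RNA with a poly(A) tail was reverse transcribed, and such elements can lengthen that tail. The preparation is not settled, as given below. The last 150 bases of the 3′UTR were searched on the transcript strand for the CPE (TTTTAT or TTTTAAT) and the last 40 for the signal (AATAAA or ATTAAA). In the principal transcripts of 3 of the 10 members, Bub1b, Ttk and Cdc20, a CPE began within 100 bases before the signal, against 13% of 20751 genes scanned in the same way. A signal was found in 8 of the 10, against 72.3% of genes. Mad2l1 had neither in its long principal transcript, and a shorter annotated transcript had a CPE more than 100 bases from its signal or after it. The sites of the 3 are shown for this reason, with the CPE and the signal in capitals, 30 bases each. In Ttk the signal lies 79 bases after the start of the CPE and is outside the bases shown. In Cdc20 a pair of CPEs share a base.
Bub1b, chr2:118641556-118641585, plus strand: cactgtgtaTTTTATAATAAAatagttttt
Ttk, chr9:83872270-83872299, plus strand: gttgtgcttttcTTTTATgcttttctgtaa
Cdc20, chr4:118432911-118432940, minus strand: TTTTATTTTATtttttctAATAAAgttcgt

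In WT GV oocytes the 10 RNAs spanned a wide range of levels. Per kilobase of the principal transcript, Pttg1 had 4860 and 5190 CPM in the 2 libraries and ranked among the 19 most counted genes. Bub1b followed with 88.3 and 91.3 CPM per kilobase, Ube2c with 88.3 and 105, Mad2l1 with 88.1 and 70.9, and Bub3 with 63.1 and 61.8. Bub1b and Ube2c overlapped, and their gap to Mad2l1 was smaller than the spread between the Mad2l1 libraries. The principal transcript of Mad2l1 has 7557 bases, 6802 of them 3′UTR, and another coding transcript has 1725. On the shorter length Mad2l1 would stand higher, so its place rests on the transcript used, which was not resolved. Its exons together, 8390 bases, carry the same limit. Ttk (27.3 and 27.1) was next to Cdc20 (26.4 and 26.7), and Bub1 stood below them at 17.3 and 17.1. The lowest were Mad1l1, at 5.91 and 4.24, and Fzr1, at 3.63 and 3.22. Pttg1 was also highest and Fzr1 and Mad1l1 lowest when the length of all annotated exons was used, while Bub3 then dropped to 20 and 19.6 and lay below Cdc20, at 25.4 and 25.6.

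**Figure D1:**
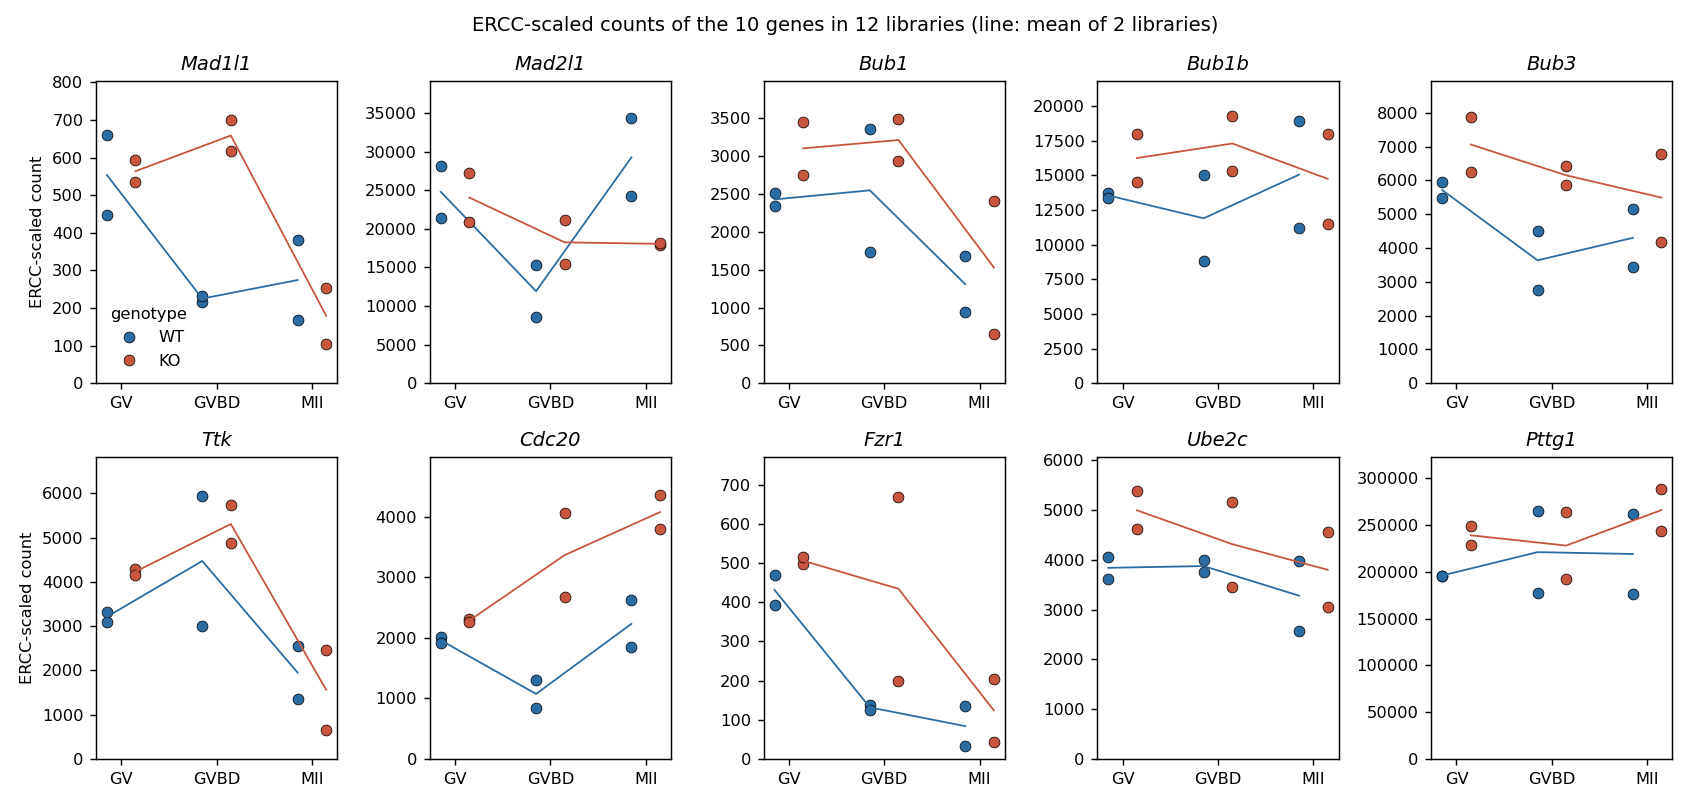
ERCC-scaled counts (vertical axis, from 0) of each gene at GV, GVBD and MII, 1 panel per gene. Points are libraries, 2 per group, WT in blue and KO in red, and lines join group means. Fzr1 had 393 and 469 in WT GV and 33.3 and 134 in WT MII, and Cdc20 in KO GVBD (2670 and 4060) lay above WT GVBD (846 and 1300).

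Among the sensors, Mad1l1 and Mad2l1, partners in the complex that seeds the checkpoint signal, were both lower in WT GVBD than in WT GV. Mad1l1 had 660 and 448 scaled counts for WT GV, 217 and 233 for WT GVBD and 380 and 169 for WT MII. In KO it had 535 and 593 for GV, 617 and 701 for GVBD and 254 and 105 for MII. The WT and KO GVBD libraries did not overlap, with all KO values above all WT values, as for 30.3% of all genes. For Mad2l1 the WT libraries had 28200 and 21400 for GV, 15300 and 8540 for GVBD and 34300 and 24200 for MII. Its KO libraries had 27200 and 20900 for GV, 15400 and 21100 for GVBD and 17900 and 18200 for MII. KO lay just above WT at GVBD and below WT at MII, without overlap at either stage, beside 30.3% and 10.3% of all genes. As a share of gene counts, Mad2l1 reached 1160 and 1280 CPM in WT MII against 505 and 825 for KO MII, and 536 and 666 for WT GV.

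Bub1b encodes BUBR1, a part of the complex that captures CDC20. Its scaled counts were 13700 and 13400 for WT GV, 15000 and 8800 for WT GVBD and 18900 and 11200 for WT MII. The KO libraries had 18000 and 14500 for GV, 19300 and 15300 for GVBD and 18000 and 11500 for MII. On this scale the stages overlapped in both genotypes, but the share of Bub1b was 637 and 588 CPM in WT MII against 324 and 335 for WT GV. In KO the share was 507 and 519 for MII against 350 and 323 for GV. Bub3, the WD40 adaptor that brings BUB1 and BUBR1 to kinetochores, had 5950 and 5480 scaled counts for WT GV, 4510 and 2760 for WT GVBD and 5160 and 3440 for WT MII. In KO its values were 7870 and 6250 for GV, 5870 and 6430 for GVBD and 6790 and 4190 for MII. KO exceeded WT without overlap at GV and GVBD, as for 42.2% and 30.3% of all genes, and the MII libraries overlapped. At GV the shares of Bub3 overlapped, and its log2 fold change was 0.31, below the median of 0.36 over all genes.

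Both loading kinases had their lowest scaled counts at MII. Bub1 had 2520 and 2340 for WT GV, 3360 and 1740 for WT GVBD and 1680 and 939 for WT MII. In KO it had 3460 and 2750 for GV, 3490 and 2940 for GVBD and 2410 and 652 for MII. In both genotypes the MII libraries of Bub1 lay below the GV libraries on this scale. As a share, Bub1 overlapped between stages in KO, at 67.1 and 61.2 CPM for GV and 68 and 29.5 for MII. Ttk, which encodes the kinase MPS1 at the head of the cascade, had 3320 and 3100 for WT GV, 5940 and 3000 for WT GVBD and 2550 and 1350 for WT MII. In KO it had 4300 and 4160 for GV, 5730 and 4880 for GVBD and 2470 and 652 for MII. The KO MII libraries differed 3.79-fold in Ttk and 3.7-fold in Bub1, with replicate 2 the lower in both. Ttk too was lower in each MII library than in each GV library of its genotype on the ERCC scale, an arrangement shared by 58% of all genes in WT and 61.4% in KO. On shares Ttk overlapped between GV and MII in WT.

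Cdc20, the activator that the checkpoint restrains, had higher scaled counts in KO than in WT at every stage. It had 2010 and 1910 scaled counts for WT GV, 1300 and 846 for WT GVBD and 2620 and 1840 for WT MII. In KO it had 2310 and 2260 for GV, 4060 and 2670 for GVBD and 4360 and 3790 for MII. The genotypes did not overlap at any of the 3 stages. KO was likewise higher without overlap for 42.2% of all genes at GV, 30.3% at GVBD and 22.1% at MII. At GV the log2 fold change of Cdc20 was 0.22, below the median of 0.36 over all genes. The shares differed likewise after GV, with 28.6 and 27.8 CPM in WT GVBD against 83.1 and 67.1 for KO GVBD, and 88.7 and 97 for WT MII against 123 and 171 for KO MII. At GV the shares overlapped, at 47.4 and 47.8 in WT and 44.7 and 50.3 in KO.

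Fzr1, which encodes the other activator CDH1, was lower at MII than at GV in both genotypes. It had 469 and 393 scaled counts for WT GV, 138 and 125 for WT GVBD and 134 and 33.3 for WT MII. The KO libraries had 497 and 514 for GV, 199 and 669 for GVBD and 205 and 43 for MII. KO GVBD replicate 2 was above both KO GV libraries, with 607 counts as deposited, and replicate 1 was below both, with 121. The replicate libraries of WT MII differed 4.02-fold and those of KO MII 4.77-fold in this gene, on 69 and 168 counts in WT MII and 60 and 205 for KO MII.

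Ube2c, which starts ubiquitin chains on APC/C substrates, had 3620 and 4060 scaled counts for WT GV, 3990 and 3760 for WT GVBD and 3980 and 2580 for WT MII, and 5380 and 4610, 5170 and 3460, and 4550 and 3050 in KO at the same stages. Only at GV did the genotypes not overlap, with KO higher, as for 42.2% of all genes. Pttg1, the separase inhibitor, had 196000 in both WT GV libraries, 265000 and 177000 for WT GVBD and 262000 and 176000 for WT MII. In KO it had 249000 and 229000 for GV, 264000 and 192000 for GVBD and 288000 and 244000 for MII. Its share was 4610 and 4920 CPM in WT GV and 8860 and 9290 for WT MII, and 4830 and 5090 for KO GV and 8100 and 11000 for KO MII.

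**Figure D2:**
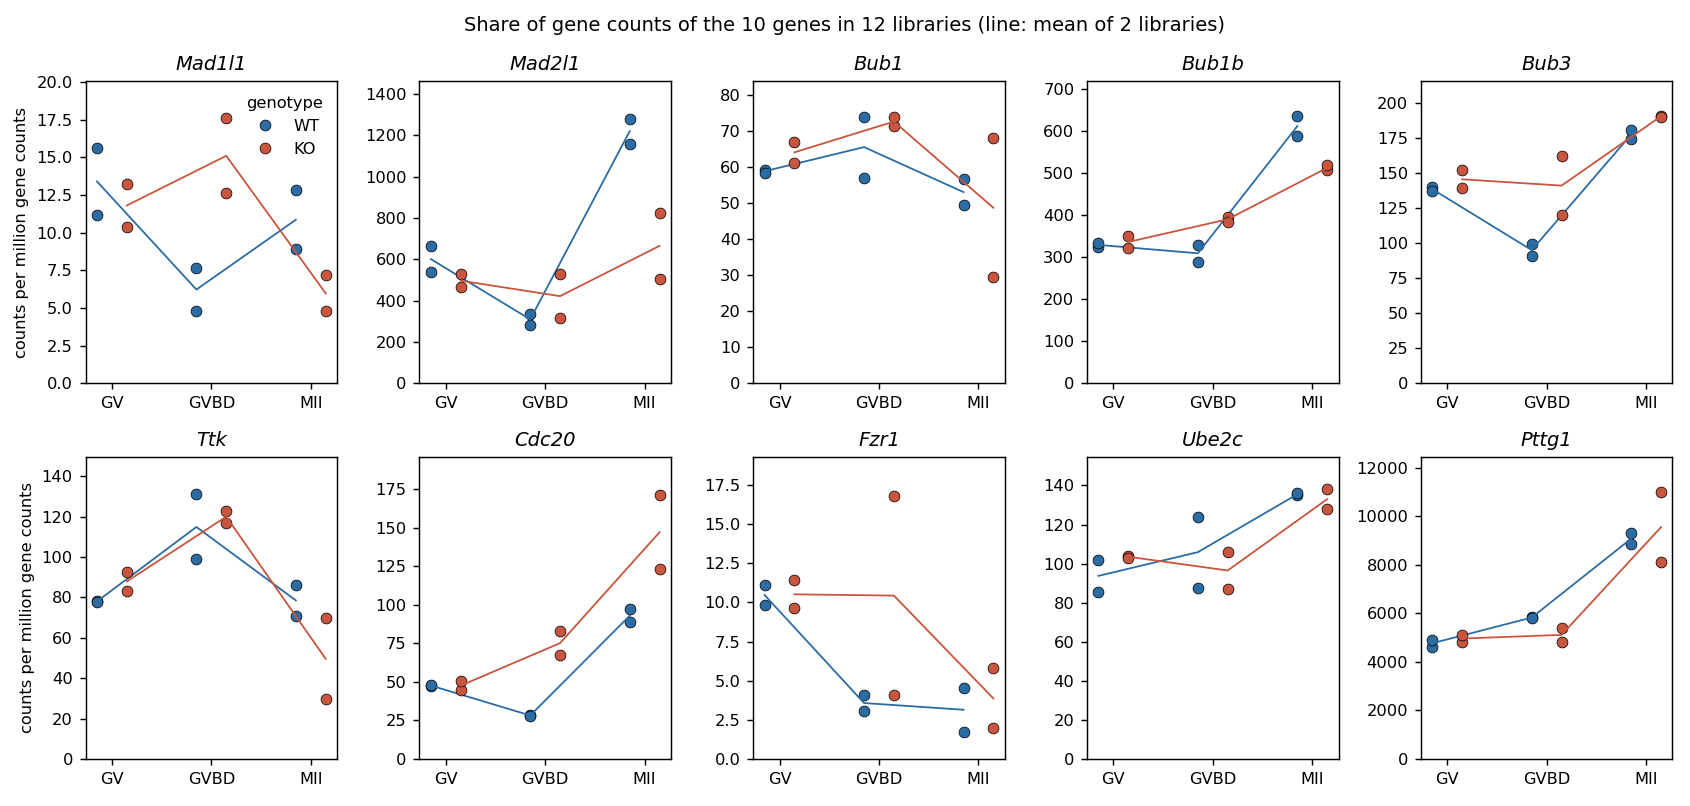
Share of gene counts in CPM (vertical axis, from 0) of each gene at GV, GVBD and MII. Points are libraries, 2 per group, WT in blue and KO in red, and lines join group means. Mad2l1, Bub1b, Bub3, Cdc20, Ube2c and Pttg1 had higher shares in both WT MII libraries than in both WT GV libraries.

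KO and WT were compared at each stage with edgeR on ERCC-scaled library sizes. A gene was called when its Benjamini-Hochberg adjusted p was under 0.05 and its log2 fold change at least 1 in either direction. At GV 0 of the 10 members were called, 0 had an unadjusted p under 0.05 and DESeq2 called 0. Over all genes, edgeR called 0.0977% of 19452, and DESeq2 called 6.18% of the 10778 to which it gave an adjusted p. The members' log2 fold changes lay between -0.04 and 0.40 with a median of 0.27, against 0.36 over all genes, and on TMM scaling they lay between -0.41 and 0.05. The 8 members with both KO libraries above both WT libraries stand beside 42.2% of all genes that did the same. On shares 3 members did, beside 30.6% of all genes. The granulosa marker sum was also higher in both KO libraries, as given above, and its part was not tested here or at the later stages.

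At GVBD, where 2.54% of 19462 genes were called, edgeR called 0 of the 10 members, with 3 at an unadjusted p under 0.05, and DESeq2 called Mad1l1 and Cdc20, both higher in KO. Of all genes, DESeq2 called 4.63% here, and 2.45% as higher in KO. The log2 fold changes were 1.65 ± 0.53 (SE, edgeR adjusted p = 0.109) for Cdc20, 1.55 ± 0.57 (edgeR adjusted p = 0.171) for Mad1l1 and 1.72 ± 0.64 (edgeR adjusted p = 0.176) for Fzr1. All 10 members had a log2 fold change above 0, from 0.04 to 1.72, with a median of 0.58 against 0.23 over all genes, and 8 of the 10 were above 0 on TMM scaling. In 6 members the libraries did not overlap and KO was higher, which held for 30.3% of all genes, and on shares KO was higher without overlap in 4, beside 25.9% of all genes. Blood markers summed to 67500 and 111000 scaled counts for WT GVBD and 311 and 646 for KO GVBD, and the granulosa markers to 1630 and 1990 for WT GVBD and 2180 and 3660 for KO GVBD. The part of either in these differences was not tested.

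At MII edgeR and DESeq2 each called 0 of the 10, 0 had an unadjusted p under 0.05, and 0.803% of 17566 genes were called by edgeR and 2.05% of 16884 by DESeq2. KO was higher without overlap for Cdc20 and lower for Mad2l1 on scaled counts, beside 22.1% and 10.3% of all genes. On shares Bub3 and Cdc20 were higher in KO without overlap, 2 of 10 beside 25.6% of all genes. Mad1l1, Mad2l1, Bub1b and Ttk were lower, 4 of 10 beside 25.5%. On TMM scaling 1 member had an unadjusted p under 0.05, Mad1l1 at -0.89 ± 0.35 (edgeR adjusted p = 0.261). On ERCC scaling the log2 fold changes ran from -0.70 for Mad2l1 to 0.87 for Cdc20, with standard errors of 0.65 and 0.79. With the 3 stages in one fit and stage as a term, edgeR and DESeq2 each called 0 of the 10 members and 1.26% of 22004 genes were called by edgeR and 7.64% of 17738 by DESeq2. Cdc20 was the only member with an unadjusted p under 0.05 in edgeR, at a log2 fold change of 0.91 ± 0.27 (edgeR adjusted p = 0.101), and 2 members had one in DESeq2. Over all genes the median in this comparison was 0.29, and over the members it was 0.28.

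**Figure D3:**
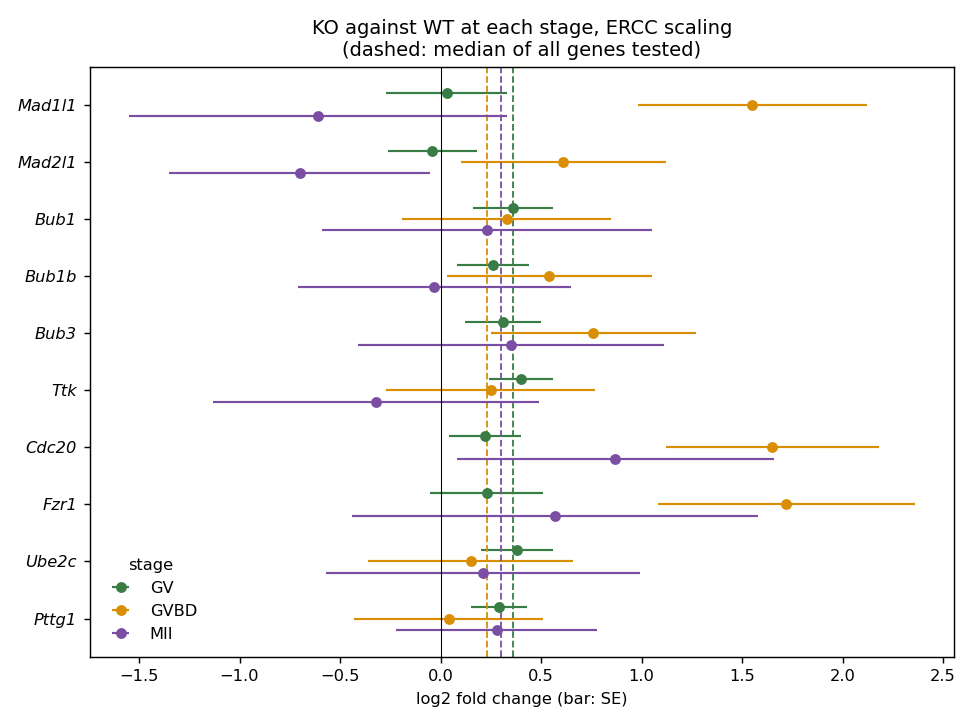
Log2 fold change of KO against WT (horizontal axis, 0 is equal) for each gene at GV, GVBD and MII on the ERCC scale, with bars of 1 SE from edgeR. Dashed lines are the medians of all genes tested, 0.36, 0.23 and 0.30. The 3 highest values are those of Fzr1, Cdc20 and Mad1l1 at GVBD, between 1.55 and 1.72.

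Between GV and GVBD no member was called in either genotype by edgeR. In WT, 3 had an unadjusted p under 0.05 and DESeq2 called Fzr1, lower at GVBD. Of all genes, 0.0511% of 19566 were called by edgeR and 2.04% of 18807 by DESeq2, with 1.41% called lower by DESeq2. The log2 fold changes were -1.71 ± 0.46 (edgeR adjusted p = 0.371) for Fzr1, -1.30 ± 0.45 (edgeR adjusted p = 0.568) for Mad1l1 and -1.06 ± 0.40 (edgeR adjusted p = 0.639) for Mad2l1. Both GVBD libraries were below both GV libraries for 5 members, these 3 with Bub3 and Cdc20, and for 19.3% of all genes. In KO, 0 had an unadjusted p under 0.05, DESeq2 called 0, and 0.22% of 19064 genes were called by edgeR and 1.24% of 18694 by DESeq2. The KO values lay between -0.40 and 0.56.

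From GVBD to MII in WT the median log2 fold change was -1.11 over 19211 genes, of which 27.8% were called. On ERCC scaling 131 genes were called higher and 5208 lower, and on TMM scaling 1902 and 3014. The members stood above that median in 9 of 10 cases, with a median of 0.12 and a range from -1.20 for Ttk to 1.30 for Mad2l1. No member was called by edgeR on the ERCC scale, and 1 had an unadjusted p under 0.05, Mad2l1 at 1.30 ± 0.61 (edgeR adjusted p = 0.0957), which DESeq2 called, beside 28.4% of all genes that it called and 0.958% that it called higher. TMM scaling centres on the bulk of the genes, and its fold changes are not those of the CPM share. On it Mad2l1, Bub1b, Bub3 and Cdc20 were called higher, 4 of 10 beside 9.9% of all genes. The mean CPM share went from 310 in WT GVBD to 613 in WT MII for Bub1b, and from 95 to 178 for Bub3. Their TMM log2 fold changes were 2.29 ± 0.20, 1.29 ± 0.17, 1.22 ± 0.18 and 2.03 ± 0.20. Shares of 7 members were higher in both MII libraries than in both GVBD libraries, against 23.5% of genes. In KO, where edgeR called 7.2% of 17966 genes and DESeq2 12.8% of 17617, edgeR and DESeq2 each called 0 members, and Mad1l1 (-1.87 ± 0.85, edgeR adjusted p = 0.191) and Ttk (-1.77 ± 0.77, edgeR adjusted p = 0.165) had unadjusted p-values under 0.05.

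Across the whole of maturation in WT, Fzr1 was the 1 member called on the ERCC scale, and it was lower at MII. Its log2 fold change from GV was -2.37 ± 0.60 (edgeR adjusted p = 0.000533), against a median of -1.06 over all genes, and 22.9% of the genes tested had a lower value. Of 18816 genes, 30.9% were called and 30.5% were called lower. These were 74 genes higher and 5747 lower, against 1593 and 3053 on TMM scaling. The call was lost on TMM scaling (-1.60), on median-of-ratios scaling (-1.54) and with all 12 libraries in one model. It was also lost without WT GV replicate 1 (-2.24), without WT GV replicate 2 (-2.49) and without WT MII replicate 2 (-1.68). Without WT MII replicate 1 it held at -3.69, and Mad1l1, Bub1 and Ttk were then called lower as well, 4 of 10 with Fzr1 beside 26% of all genes. DESeq2 called Fzr1 alone of the members, beside 29.3% of all genes called and 29.1% called lower. The other members ranged from -1.02 for Mad1l1 to 0.24 for Mad2l1, and 9 of the 10 stood above the median of all genes.

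Measured relative to other genes, the same step looked different. The mean CPM share went from 4760 in WT GV to 9080 in WT MII for Pttg1, and from 330 to 613 for Bub1b. TMM fold changes are not those of this share. TMM scaling called 4 of 10 members higher in WT MII than in WT GV, beside 8.47% of all genes, and no member lower. These were Mad2l1 at 1.16 ± 0.24, Cdc20 at 1.12 ± 0.19, Pttg1 at 1.09 ± 0.19 and Bub1b at 1.05 ± 0.18, while their log2 fold changes on the ERCC scale were 0.24 ± 0.44, 0.19 ± 0.48, 0.16 ± 0.39 and 0.15 ± 0.45. The shares of 6 members, those 4 with Bub3 and Ube2c, did not overlap and were higher at MII, as for 27.2% of genes. The ERCC-scaled counts of the 4 overlapped between GV and MII, while the median over all genes was -1.06. Of the 3 members with a CPE before the signal, Bub1b and Cdc20 were among the 4, and Ttk had 78.3 and 77.7 CPM at GV and 86 and 71 for MII. Pttg1 and the principal transcript of Mad2l1 had no such motif in the window.

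In KO, edgeR and DESeq2 called 0 of the 10 members between GV and MII on the ERCC scale, beside 3.28% of 18777 genes called by edgeR and 16.3% by DESeq2. Only Fzr1 had an unadjusted p under 0.05 in edgeR, at -2.03 ± 0.89 (edgeR adjusted p = 0.192). Without KO MII replicate 1, 4 members were called lower (Mad1l1, Bub1, Ttk and Fzr1), beside 53.9% of all genes, so that the count rests on which of the 2 KO MII libraries is used and 4 of 10 is below the share of all genes. TMM scaling called Cdc20 higher at 2.03 ± 0.38, 1 of 10 beside 1.19% of genes, and 5 members had shares that did not overlap and were higher at MII, beside 20.1% of genes. On the ERCC scale Cdc20 was at 0.83 ± 0.56, higher than 98.1% of the genes tested. The median over all genes was -1.17 and over the members -0.40.

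**Figure D4:**
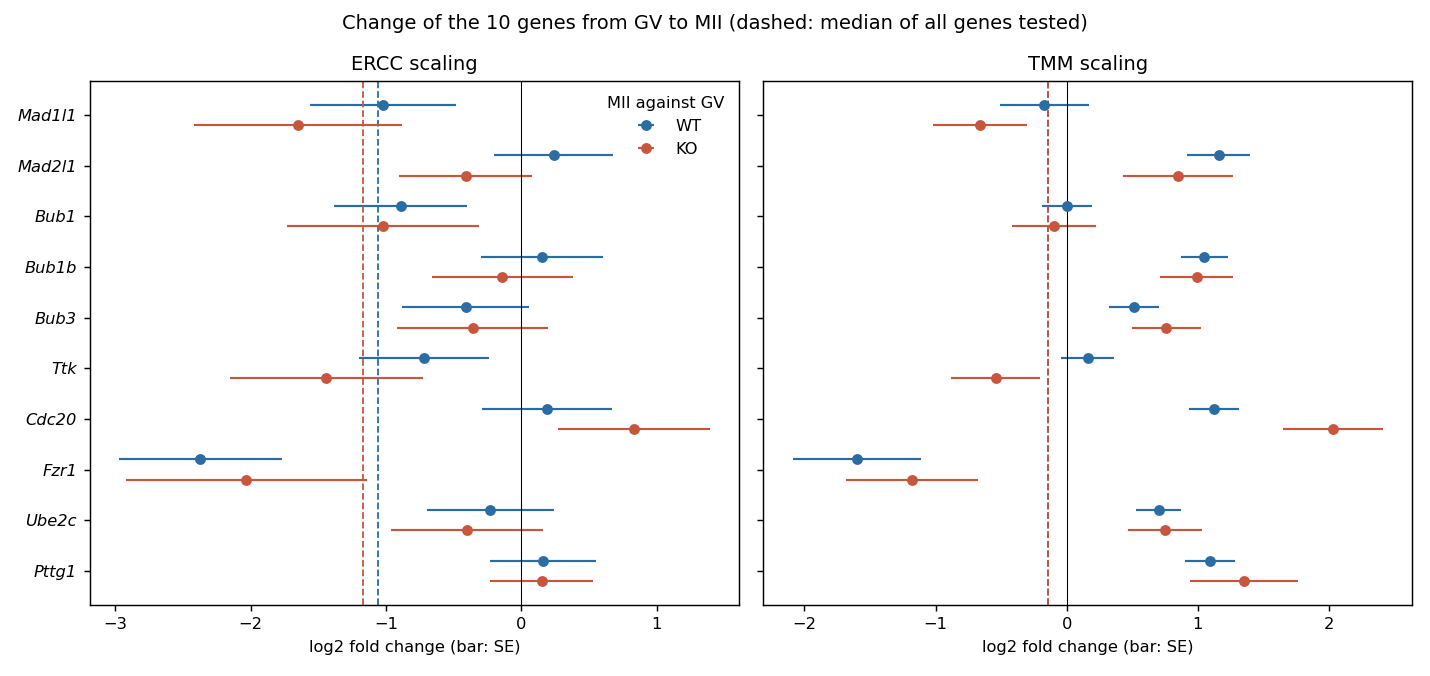
Log2 fold change from GV to MII (horizontal axis) of each gene in WT (blue) and KO (red) with bars of 1 SE from edgeR, on ERCC scaling (left) and TMM scaling (right). Dashed lines are the medians of all genes tested, -1.06 and -1.17 on the left and -0.14 in both genotypes on the right. Cdc20 in KO lies farthest to the right in both panels, at 0.83 and 2.03.

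Whether the change between GV and MII differed by genotype was tested with an interaction term, which was called for 0 of the 10 members and 0% of 20807 genes by edgeR, and for 0 members and 0.929% of 16369 genes by DESeq2, with no member at an unadjusted p under 0.05 in either. The differences, KO minus WT, lay between -0.72 for Ttk and 0.65 for Cdc20. The changes from GV to GVBD and from GVBD to MII were compared between genotypes in the same way after the data had been seen. Again no member was called. Mad1l1 and Cdc20 had unadjusted p-values under 0.05 for the first step, with differences of 1.52 ± 0.53 (edgeR adjusted p = 0.512) and 1.43 ± 0.48 (edgeR adjusted p = 0.5), and Mad1l1 for the second, at -2.16 ± 1.01 (edgeR adjusted p = 0.815).

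The rest of the pathway was read from 5 lists of 45 genes in all, 44 of which were tested. The meiotic cohesin gene Rec8 was not tested, with 0 counts in 10 libraries and 2 and 3 in the others. Between WT GV and WT MII, 0 of the 44 were called higher and 7 lower on the ERCC scale, where 0.393% of all genes were called higher and 30.5% lower. Their median was -0.27, against -1.06 over all genes. The kinetochore gene Zwint was at -3.33 ± 0.52 (edgeR adjusted p = 3.08e-09) and the histone H3 kinase gene Haspin at -1.64 ± 0.51 (edgeR adjusted p = 0.00657), 2 of the 10 checkpoint partners. Of 14 APC/C subunits, 4 were called lower, a share near that of all genes. They were Anapc15 at -3.19 ± 0.51, Anapc2 at -2.52 ± 0.56, Anapc5 at -1.43 ± 0.51 and Anapc16 at -1.40 ± 0.50. APC15 helps the APC/C to shed the checkpoint complex, and APC2 is the cullin of its catalytic core. Of 11 APC/C substrates only the kinase gene Nek2 was called, at -1.33 ± 0.52, and none of the 4 E2 and inhibitor genes (Ube2s, Ube2d1, Fbxo5, Fbxo43) or the 5 tested cohesion genes was called. On TMM scaling 14 of the 44 were called higher and 3 lower, beside 8.47% and 16.2% of all genes. The 3 were Zwint, Anapc2 and Anapc15, and Haspin, Anapc5, Anapc16 and Nek2 were no longer called.

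Scaled counts of Zwint were 6990 and 8760 for WT GV, 998 and 569 for WT MII, 10100 and 10500 for KO GV and 4130 and 1520 for KO MII. Anapc15 had 8520 and 8470 for WT GV, 969 and 890 for WT MII, 12900 and 10000 for KO GV and 4600 and 1940 for KO MII. In both, the KO MII libraries lay above the WT MII libraries, as for 22.1% of all genes. Their KO against WT values at MII were the highest of the 44. They were 1.85 ± 0.84 (edgeR adjusted p = 0.5) and 1.82 ± 0.83 (edgeR adjusted p = 0.513). Mad2l1bp (-1.37 ± 0.81), Smc1b (-0.75 ± 0.91) and Cdc27 (-0.71 ± 0.73) were lower in KO MII without overlap, beside 10.3% of all genes. KO against WT at MII was not called for any of the 44. In KO no gene of the lists was called between GV and MII on the ERCC scale. From GVBD to MII in WT, 1 was called higher, Mad2l1bp at 2.14 ± 0.68, whose product takes MAD2 out of the checkpoint complex, beside 0.682% of all genes called higher. Of the 44, 4 were called lower, Zwint, Haspin, Anapc2 and Anapc15, beside 27.1% of all genes, and of these Haspin was not called on TMM scaling. Anapc2 was the 1 gene called lower for this step in KO, at -2.97 ± 0.85, where 7.12% of all genes were.

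Between the genotypes, 1 of the 44 was called at any stage by edgeR. Cdc25a, a phosphatase gene whose product activates CDK1, was higher in KO at GVBD with a log2 fold change of 2.26 ± 0.59 (edgeR adjusted p = 0.0445), beside 0.807% of all genes called higher there. The call was lost on TMM scaling, at 1.89 ± 0.47 (edgeR adjusted p = 0.156). Cdc25a had 283 and 269 scaled counts for WT GVBD and 1900 and 741 for KO GVBD. The medians of the 44 genes were 0.35 for GV, 0.42 for GVBD and 0.13 for MII, and those of all genes were 0.36, 0.23 and 0.30. Between GV and GVBD no gene of the lists was called in either genotype.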

How the data were processed

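RNA was sequenced from pools of oocytes in 12 libraries, 2 per genotype and stage, grouped by their labels. According to the study's methods, reads were trimmed with Cutadapt, aligned with HISAT2 to GRCm38 joined to the ERCC sequences, kept where uniquely mapped and passed to StringTie, and groups were compared with DESeq2. The submitters' processing notes name cutadapt 1.9, HISAT2 2.0.4 and StringTie 1.3.4d. The annotation release, strand setting and counting step are not given in the sources used here. The extraction protocol with the labels describes another, bulk preparation, and pool sizes are stated differently in 2 places of the study, so neither is settled. The values the authors deposited are raw counts per gene, with 92 ERCC sequences. Reads shared with near-identical copies were lost by unique mapping, and PCR reads are not independent molecules. Total counts of 28.6 to 40.2 (in units of 1e6) per library limit counting error only.

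Symbols were matched to 52073 (91.9%) of 56691 genes. Positions, 3′UTR sequences and lengths are from GENCODE M21 on GRCm38. The principal transcript was the one with the best APPRIS mark, then the longest coding sequence. Each comparison was fitted with edgeR 4.0.16 (glmQLFit, glmQLFTest, two-sided) in R 4.3.3 on the libraries it names, with library sizes in proportion to ERCC sums and genes kept by filterByExpr. A call needs an adjusted p under 0.05, over all genes tested, and an absolute log2 fold change of 1. The SE is the absolute log2 fold change over the square root of F. There were 11 comparisons: KO against WT at each stage and over all stages, each pair of stages in each genotype, and an interaction term for whether the change between GV and MII differed by genotype. Comparisons that share libraries are not independent. The study calls the samples of a group biologically independent. The sources used here do not say whether its 2 libraries came from separate animals, so p-values measure the spread between these libraries. On simulated counts for MII against GV in WT, over 18209 genes, the test recovered 77% of 200 genes changed by 2 on the log2 scale, with 7 false calls. The simulation gave every gene the same dispersion and changed only genes with a mean scaled count above 200. The 77% therefore does not carry over to genes with fewer counts or to comparisons with a wider spread.

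Alternatives were TMM and median-of-ratios scaling, the Wald test of DESeq2 1.42.0, a replicate block, leaving out single libraries, a joint model of all 12 libraries, no fold minimum and no filter on low counts. The 10 members and the pathway and marker lists were chosen with earlier results of these data known. All members are named, with Alkbh5 as the check of the labels. Actb, the other check, was at a log2 fold change of -0.23 ± 0.20, -0.58 ± 0.53 and -0.39 ± 0.83 in KO against WT at GV, GVBD and MII. Of each list, the genes called in a comparison are named if at most 6, otherwise the 3 highest and 3 lowest. Rec8 was named after its values were seen. The 14 cumulus and granulosa markers summed to 939 to 3660 scaled counts and the 10 oocyte markers to 489000 to 1150000.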

Additional observations from a re-analysis of the deposited data

Results flagged for a closer look

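The 3 members Cdc20, Mad1l1 and Mad2l1 are listed because 2 comparisons of each went opposite ways on the ERCC scale, each without overlap. For Cdc20 and Mad1l1 these were GVBD against GV in WT and in KO, and for Mad2l1 KO against WT at GVBD and MII. The share of all genes with such a pair was not counted. Single parts occurred in 19.3% (WT) and 12.5% (KO) of all genes for the former, and 30.3% (GVBD) and 10.3% (MII) for the latter. The 3 were picked from these same libraries, so the differences below are no independent test. The GVBD libraries of Cdc20 were both below the GV libraries in WT (846 and 1300 against 1910 and 2010) and both above them in KO (2670 and 4060 against 2260 and 2310). The difference of these changes, KO minus WT, was 1.43 ± 0.48 on the log2 scale (edgeR adjusted p = 0.5). Mad1l1 showed the same arrangement, with 217 and 233 against 448 and 660 in WT and 617 and 701 against 535 and 593 in KO, and a difference of 1.52 ± 0.53 (edgeR adjusted p = 0.512). For Mad2l1, KO was above WT at GVBD (15400 and 21100 against 15300 and 8540) and below WT at MII (17900 and 18200 against 34300 and 24200). At GVBD its shares overlapped between genotypes, and its KO libraries overlapped between GVBD and MII. The change from GVBD to MII differed by -1.31 ± 0.76 (edgeR adjusted p = 0.972). None of the 3 differences passed the adjusted threshold, and all rest on 2 libraries per group. Genes called over all genes numbered 2 for the GV to GVBD difference and 13 for the GVBD to MII difference, none of them a member.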

How the results depend on the processing

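The count of called members was 0 under every alternative run for KO against WT at GV, at MII and over all stages, for GVBD against GV in KO and for the interaction of genotype with the step between GV and MII. DESeq2 called 2 members for KO against WT at GVBD and 1 for GVBD against GV in WT, where edgeR called 0. For MII against GVBD in WT, 0 became 4 with TMM or median-of-ratios scaling, beside 25.6% and 26% of all genes. It became 1 with DESeq2 (28.4%) or with all 12 libraries in one model (17.5%). The replicate block gave 3 (Mad2l1 and Cdc20 higher, Ttk lower), beside 31.7% of all genes called, 1.35% higher and 30.4% lower. TMM scaling and the block gave 4, beside 26%. For MII against GV in WT, 1 became 4 with TMM or median-of-ratios scaling, beside 24.7% and 25.6% of all genes. With all 12 libraries in one model it became 0, beside 17.4%. It became 4 with TMM scaling and the block (21.9%), where Pttg1 was no longer called higher and Fzr1 was called lower. For MII against GV in KO, 0 became 1 under TMM (5.06% of all genes), median-of-ratios (4.95%), and TMM with the block (9.25%). For MII against GVBD in KO the block gave 1, Ttk lower, beside 13.6% of all genes called and 13.5% called lower. Leaving out 1 library gave 0 to 4 for the last 3 of these comparisons and 0 for all others, with 4 reached without WT MII replicate 1 or KO MII replicate 1. A lone library was then assumed to vary like the other group. ERCC scaling compares amounts per tube, and TMM and median-of-ratios scaling compare levels relative to the bulk of the genes. The cause of the other moves was not tested.

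Leaving out single libraries turned the sign of members that were not called on the ERCC scale. From GVBD to MII in WT, Bub3 ranged from -0.08 to 0.64 and Bub1b from -0.09 to 0.77. From GV to MII in WT, Mad2l1 ranged from -0.03 to 0.47, Bub1b from -0.28 to 0.48, Cdc20 from -0.09 to 0.42 and Pttg1 from -0.15 to 0.42, each below 0 without WT MII replicate 1. Bub3 was also below 0 without WT GVBD replicate 2. Cdc20 in KO against WT at GVBD stayed between 1.32 and 1.99.

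Counts over all genes moved widely. They were 0 to 666 (main 19) for KO against WT at GV, 5 to 953 (494) at GVBD, 0 to 542 (141) at MII and 63 to 1356 (278) over all stages. For MII against GV they were 2853 to 5821 (5821) in WT and 39 to 11075 (616) in KO, for MII against GVBD 1852 to 6099 (5339) in WT and 0 to 6334 (1293) in KO, for GVBD against GV 0 to 629 (10) in WT and 0 to 888 (42) in KO, and for the interaction 0 to 346 (0).

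On TMM-scaled levels, same-numbered libraries deviated together with correlations from -0.22 to 0.14 over 13273 genes, so the numbers were not taken to pair them. That scale removes shifts shared by a whole library, so the correlations cannot show them. Counts on genes per ERCC count were higher in replicate 1 than in replicate 2 of every group. They were 73.3 against 47 for WT MII and 87.9 against 54.7 for KO MII. Pairing on the ERCC scale was therefore not settled. The block, read with that limit, changed the members called only as given above. With numbers crossed, 218, 0 and 204 genes were called for KO against WT at GV, at MII and for MII against GVBD in KO, none of them a member. A call needs an absolute log2 fold change of 1, so smaller values could not be called. With 2 libraries per group, no member under 1 passed the adjusted p on ERCC scaling. On TMM scaling Pttg1 passed it for MII against GVBD in WT, at 0.95 ± 0.16 (edgeR adjusted p = 0.0123). Ube2c did for MII against GV in WT, at 0.70 ± 0.17 (edgeR adjusted p = 0.0279). Only the fold minimum kept these from being called. The smallest members' counts, 60 for Fzr1, carry counting error as well.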
